A study of Equus caballus with 8 samples.

Results

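The genes of collagen types I, V and XI, COL1A1, COL1A2, COL5A1, COL5A2, COL5A3 and COL11A1, were followed in mesenchymal stem cells from equine bone marrow (BM-MSCs) grown with or without TGF-β2. They were chosen by gene symbol, and were 6 of the 15266 genes analysed. BM-MSCs are the plastic-adherent stromal cells that grow out of marrow, here from the sternum of 4 adult Thoroughbred or Thoroughbred-cross horses, known by the letters D, J, L and W. From every animal an untreated culture was sequenced beside 1 exposed to 1 ng/ml recombinant human TGF-β2, which gave 4 untreated and 4 treated libraries in pairs. Both groups were grown in medium with fetal bovine serum and basic fibroblast growth factor. The sample labels place the exposure from isolation until passage 3 or 4, whereas the study's methods state treatment over 3 passages. Each group therefore held 1 culture per horse, and the spread reported below is that between horses. Differences between horses cannot be told apart from those between cultures, passages or library preparations.

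Fibrillar collagens are the collagens whose triple helices pack side by side into the cross-striated fibrils of tendon, skin, bone and cornea. Type I collagen, built from COL1A1 and COL1A2 chains, forms the bulk of these fibrils. Types V and XI are minor components that are built into the type I or type II fibril, where they help to start fibril assembly and limit fibril width. COL5A1 and COL11A1 chains are closely related and can be found in the same molecules. TGF-β signalling is a known inducer of collagen transcription in fibroblasts and other stromal cells. The genes of collagen types II and III and COL11A2 were not analysed here.

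Expression is given as normalized counts, that is, reads per gene after division by the size factor of the library. Between 39184554 and 57228675 reads were counted per library. A gene was tested if 4 or more of the 8 libraries reached 10 normalized counts. This left 14907 genes, and all 6 collagen genes were among them. The test was limma on log2(normalized count + 1) with no term for the horse. A gene was called at a Benjamini-Hochberg adjusted p under 0.05 with an absolute log2 fold change over 1. Fold changes on this scale understate the change of genes with low counts. All 6 markers of marrow stromal cells were detected, with summed levels of 161816 to 355467 normalized counts in the untreated and 172849 to 271837 in the treated libraries. One of them, THY1, was lower after treatment by limma (log2 fold change -2.21, adjusted p = 0.0494). Of 7 haematopoietic markers, 3 were analysed, and their summed levels were 40.9 to 165 normalized counts in the untreated and 25.0 to 94.3 in the treated libraries.

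TGF-β2-treated BM-MSCs had higher expression of 4 of the 6 genes: COL1A1, COL5A1, COL5A2 and COL11A1. The mean normalized count was 9.31-fold higher for COL11A1, 6.25-fold for COL5A1, 4.18-fold for COL1A1 and 3.93-fold for COL5A2. COL1A2 was 2.52-fold higher by the same measure but passed the limma test only when the horse was included as a block. COL5A3, a further chain of type V, was not called in either direction. The median log2 fold change was 2.31 over the 6 genes and 0.01 over all tested genes. Of all tested genes, 5.59% were called higher and 5.87% lower. With the horse as a block, 6.83% were called higher and 7.31% lower, and 5 of the 6 collagen genes were called higher. When values were scaled to each library's total in place of the deposited normalization, the median gene shifted by -0.30 and the share of calls that were higher went from 48.8% to 27.6%. COL1A1 (2.18), COL5A1 (2.69), COL5A2 (1.81) and COL11A1 (2.99) were still called higher on that scale.

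**Figure D1:**
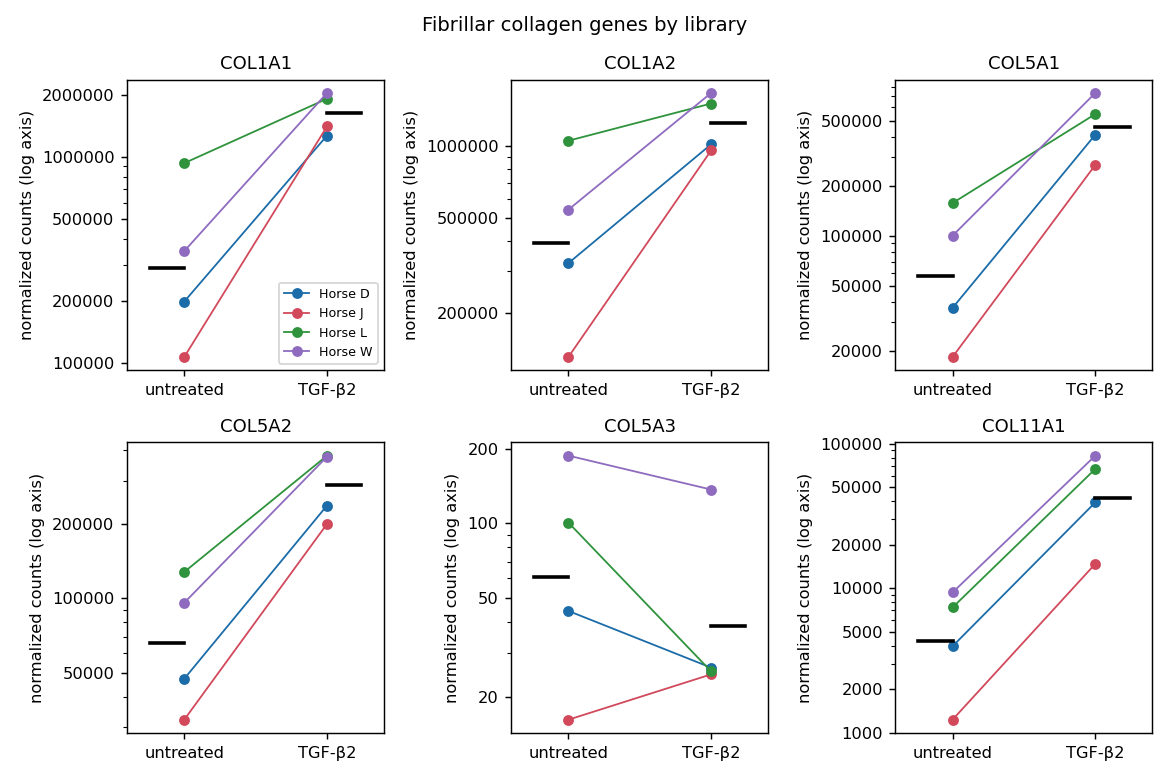
Normalized counts (log axis) of each gene in the untreated and the TGF-β2-treated library of each horse; lines join the libraries of a horse and black bars are the geometric means of 4 libraries. The treated libraries lie above all untreated ones for COL1A1, COL5A1, COL5A2 and COL11A1, whereas the groups overlap for COL1A2 and COL5A3.

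COL1A1 encodes the chain that makes up most of the type I triple helix. Its untreated libraries held 198255 normalized counts in horse D, 106716 in J, 931747 in L and 348458 in W. The treated libraries held 1268299 in D, 1404697 in J, 1913910 in L and 2042182 in W. Untreated horse L stood far above the other untreated libraries, but the groups did not overlap, a pattern in which all treated libraries exceed all untreated ones that held for 13.9% of tested genes. COL1A1 was upregulated, with a log2 fold change of 2.496 (SE 0.64, adjusted p = 0.0267 by limma). The increase was 13.2-fold in horse J, 6.40-fold in D, 5.86-fold in W and 2.05-fold in L. The adjusted p by limma was 0.141 without horse D, 0.118 without W and 0.0656 without J, whereas the call held without L (0.0195). With the horse as a block it was still 0.0902 without D and 0.0718 without W.

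COL1A2 encodes the other chain of type I collagen. It held 323057 normalized counts in untreated horse D, 130567 in J, 1053513 in L and 541474 in W. The treated libraries held 1018316 in D, 959727 in J, 1509216 in L and 1671299 in W. Untreated horse L exceeded the treated libraries of D and J, so the groups overlapped, although every treated library was above its own untreated partner. The log2 fold change was 1.67 (SE 0.63), with a 95% confidence interval of 0.23 to 3.11, and did not pass the test (adjusted p = 0.0919 by limma). With the horse as a block, the SE was 0.45 and COL1A2 was called higher (adjusted p = 0.0414 by limma), as it was by DESeq2 without the block (adjusted p = 0.0451). That call was lost without horse D (0.155), without W (0.114) and without J (0.0891). The increase within a horse was 7.35-fold in J, 3.15-fold in D, 3.09-fold in W and 1.43-fold in L.

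COL5A1 encodes the chain found in nearly all type V molecules. Its untreated levels were 36671 normalized counts in horse D, 18489 in J, 158133 in L and 100266 in W. After treatment they were 410401 in D, 269375 in J, 546962 in L and 734416 in W. The lowest treated library was 1.70-fold above the highest untreated one. COL5A1 was upregulated with a log2 fold change of 3.00 (SE 0.66, adjusted p = 0.0153 by limma), from 14.6-fold in horse J to 3.46-fold in L.

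COL5A2, the usual partner chain of COL5A1, had 47229 normalized counts in untreated horse D, 32243 in J, 127921 in L and 95973 in W. Its treated libraries held 237907 in D, 200368 in J, 378887 in L and 375414 in W. These groups did not overlap either, and untreated levels were closer together than for COL5A1. The log2 fold change was 2.13 (SE 0.46, adjusted p = 0.0139 by limma), and the increase ran from 6.21-fold in J to 2.96-fold in L. Without horse D the adjusted p by limma was 0.103 for COL5A1 and 0.0899 for COL5A2, and without W it was 0.0702 and 0.0663. In the blocked model both genes passed whichever horse was left out.

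COL5A3, a type V chain with a narrow tissue distribution, was present at 16.2 to 188 normalized counts, from 22 to 185 reads per library. The untreated libraries held 44.4 in horse D, 16.2 in J, 100.8 in L and 188 in W. The treated libraries held 26.2 in D, 24.6 in J, 25.3 in L and 137 in W. Horse W was highest in both groups, and the other treated libraries lay within a narrow band. COL5A3 was lower after treatment in 3 of 4 horses and higher in J. Its log2 fold change was -0.64 (SE 0.83), with a 95% confidence interval of -2.54 to 1.26, which includes sizeable change in either direction (adjusted p = 0.626 by limma). It was -0.20 without horse L and -1.05 without J, and was not called in either case.

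COL11A1 encodes a type XI chain, a collagen best known from cartilage that is also made in developing tendon. The untreated libraries held 3954 normalized counts in horse D, 1227 in J, 7338 in L and 9319 in W. The treated libraries held 39212 in D, 14716 in J, 66789 in L and 82531 in W. Horse J was lowest and horse W highest in each group, and no treated library reached down to the untreated range. The log2 fold change was 3.31 (SE 0.73, adjusted p = 0.0152 by limma). The within-horse increases were close together at 11.997-fold in J, 9.92-fold in D, 9.10-fold in L and 8.86-fold in W, and the SE with the horse as a block was 0.11. Without the block, the adjusted p by limma was 0.0971 without horse D, 0.0549 without L and 0.0577 without W. With the block, COL11A1 was called whichever horse was left out.

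**Figure D2:**
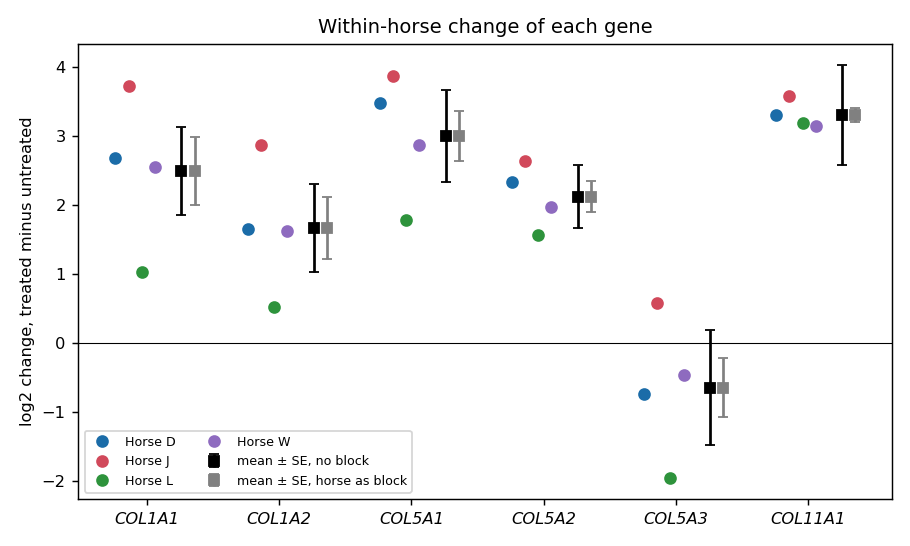
Log2 change of each gene from the untreated to the treated library of the same horse (coloured points), with the limma mean ± SE without (black) and with (grey) the horse as a block. The 4 horses lie between 3.15 and 3.58 for COL11A1 but between 1.04 and 3.72 for COL1A1.

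Untreated BM-MSCs of different horses differed widely in collagen expression. The highest untreated library was 8.73-fold above the lowest for COL1A1, 8.07-fold for COL1A2, 8.55-fold for COL5A1 and 3.97-fold for COL5A2. In the treated libraries these ranges were 1.61-fold, 1.74-fold, 2.73-fold and 1.89-fold. On the log2 scale the SD of COL1A1 was 1.33 between untreated and 0.33 between treated libraries, whereas the median tested gene had SDs of 0.33 and 0.23. COL11A1 kept a wide range, 7.60-fold between untreated and 5.61-fold between treated libraries. COL5A3 spanned 11.6-fold and 5.56-fold. The difference in spread between the groups was not tested.

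The order of the horses was similar from gene to gene. In 11 of the 12 orders, 1 for each gene in each group, horse J was lowest, and the exception was treated COL1A1, where D was lowest. Horse W was highest in 7 orders and L in 5. Some neighbours in these orders were nearly level, such as treated COL5A2 in horses L and W. Horse L, with the highest untreated levels of COL1A1, COL1A2, COL5A1 and COL5A2, had the smallest increase in each of them, and horse J, with the lowest, had the largest. The untreated level enters both quantities, so this order is a description with no test.

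The 6 genes took 1.58% of all counted reads in untreated horse D, 0.751% in J, 5.43% in L and 2.70% in W. In the treated libraries they took 6.37% in D, 6.28% in J, 8.24% in L and 9.27% in W. Every treated library thus devoted a larger share of its reads to these genes than any untreated library, and the exact 95% binomial intervals, which cover counting error only, were at most 0.0171 percentage points wide. Shares of reads also depend on transcript length, so they were compared between libraries and not between genes. Of the reads of the 6 genes, type I took 81.2 to 87.1% in the untreated and 75.7 to 83.0% in the treated libraries. Type V took 12.6 to 17.9% and 16.5 to 22.6%, and COL11A1 took 0.322 to 0.851% and 0.517 to 1.68%. The COL1A2 share, from 45.1 to 53.0% without TGF-β2, lay between 33.7 and 34.2% in all 4 treated libraries. The COL5A1 share was 6.02 to 9.15% in the untreated and 9.46 to 15.0% in the treated libraries. In these bulk libraries, more cells that express a gene and more RNA per cell cannot be told apart.

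**Figure D3:**
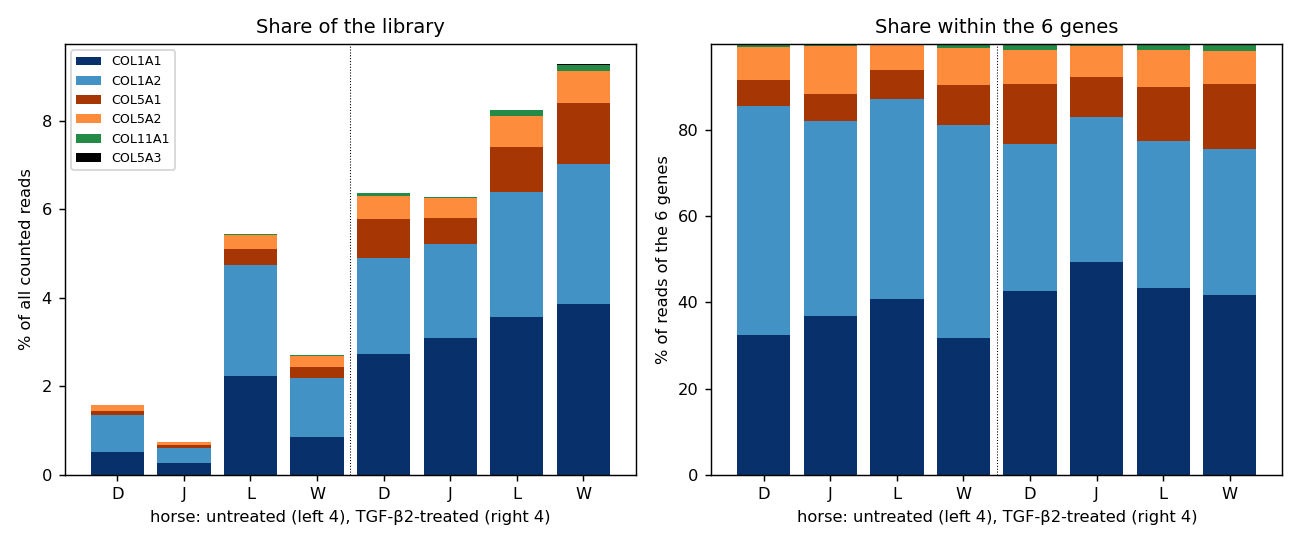
Stacked bars give, for each library, the 6 genes as a percentage of all counted reads (left) and of the reads of the 6 genes (right), with horses D, J, L and W untreated and then TGF-β2-treated. The total runs from 0.751 to 5.43% in the untreated and from 6.28 to 9.27% in the treated libraries, and COL1A2 (light blue) takes a smaller part of the treated bars.

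Ratios between chains within a library do not depend on the size factor, and 6 of them were compared by an exact two-sided permutation test of the log2 ratio, with Benjamini-Hochberg adjustment over the 6. With 4 libraries against 4 the smallest p possible is 0.0286, and none of the ratios passed an adjusted p of 0.05. COL1A1 to COL1A2, COL5A2 to COL5A1 and COL5A3 to COL5A1 were at this smallest p, adjusted 0.0571. A larger difference in any of these could not have passed, so the test cannot decide on them. It also leaves out the pairing by horse. Sign flips within the 4 horses use the pairing, but their smallest p is 0.125, so they cannot decide either. The ratio of COL1A1 to COL1A2 was 0.614 in untreated horse D, 0.817 in J, 0.884 in L and 0.644 in W. In the treated libraries it was 1.25 in D, 1.46 in J, 1.27 in L and 1.22 in W. All treated ratios were above all untreated ones, with a log2 difference of 0.83 (exact permutation p = 0.0286, adjusted 0.0571), and the ratio was higher in 4 of 4 horses. It counts reads of transcripts of different length, so its value is not the ratio of chains made.

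The ratio of COL5A2 to COL5A1, the partner chains of type V, was 1.29 in untreated horse D, 1.74 in J, 0.809 in L and 0.957 in W. In the treated libraries it was 0.580 in D, 0.744 in J, 0.693 in L and 0.511 in W. It was lower in 4 of 4 horses without overlap between the groups, with a log2 difference of -0.88 (exact permutation p = 0.0286, adjusted 0.0571). The ratio of COL5A3 to COL5A1 differed most, by -3.65 on the log2 scale (exact permutation p = 0.0286, adjusted 0.0571). It was lower in 4 of 4 horses, with means of 0.00115 ± 5.37e-04 (SD, n = 4) in the untreated and 9.7e-05 ± 6.25e-05 (SD, n = 4) in the treated libraries. Most of this difference is the increase of COL5A1 (log2 fold change 3.00). COL5A3 itself changed by -0.64 (SE 0.83), was not called, and rests on 22 to 185 reads per library.

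The ratios across collagen types overlapped between the groups. Type V to type I, each the sum of its chains, was 0.161 in untreated horse D, 0.214 in J, 0.144 in L and 0.221 in W. After treatment it was 0.284 in D, 0.199 in J, 0.270 in L and 0.299 in W. It was higher in 3 of 4 horses, all but J, with a log2 difference of 0.51 (exact permutation p = 0.0857, adjusted 0.103). COL5A3 adds few reads to this sum, and with the geometric mean of the chains, which weighs COL5A3 equally, the difference was -0.59 (exact permutation p = 0.143, adjusted 0.171).

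COL11A1 relative to type I was 0.00758 in untreated horse D, 0.00517 in J, 0.00370 in L and 0.0105 in W. After treatment it was 0.0171 in D, 0.00622 in J, 0.0195 in L and 0.0222 in W. It was higher in 4 of 4 horses, but treated J remained within the untreated range (log2 difference 1.23, exact permutation p = 0.0857, adjusted 0.103). COL11A1 relative to COL5A1 was higher in 2 of 4 horses, with means of 0.0784 ± 0.0274 (SD, n = 4) in the untreated and 0.0962 ± 0.0298 (SD, n = 4) in the treated libraries. Its log2 difference of 0.30 (exact permutation p = 0.429, adjusted 0.429) was -0.06 without horse L.

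**Figure D4:**
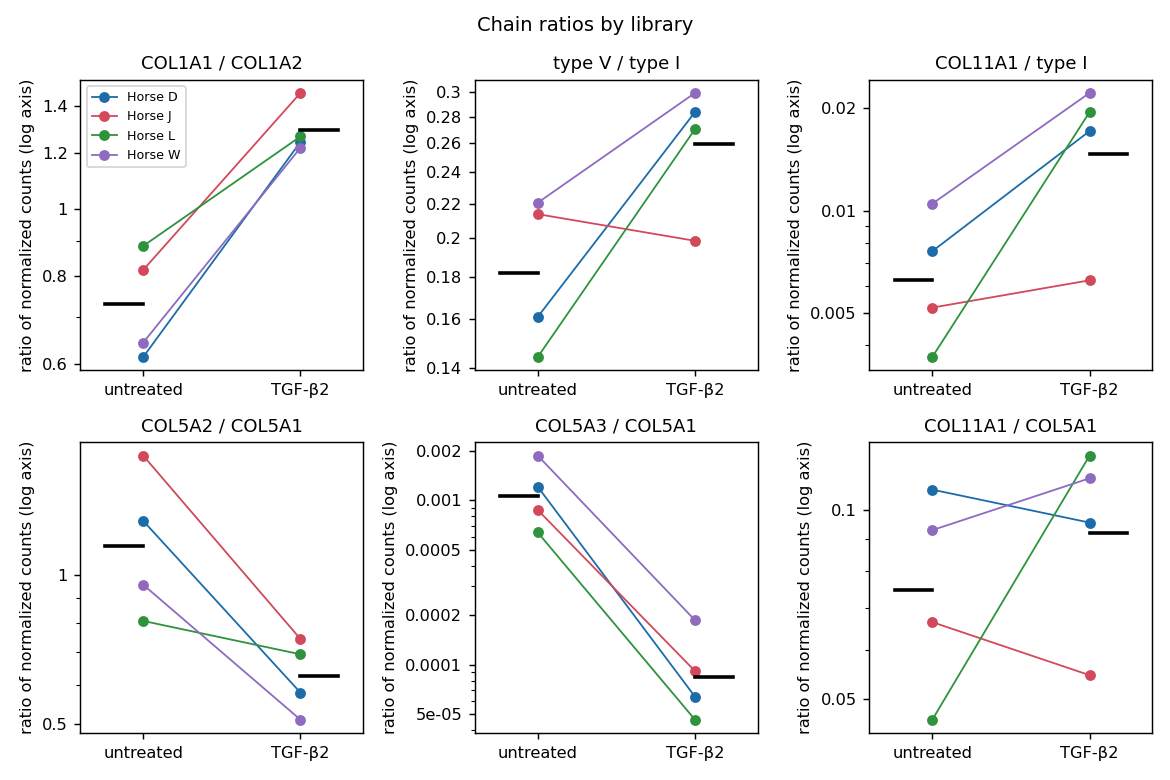
The 6 ratios of normalized counts (log axes) in each untreated and TGF-β2-treated library; lines join the libraries of a horse and black bars are geometric means of 4 libraries. Type I is COL1A1 plus COL1A2 and type V is COL5A1 plus COL5A2 plus COL5A3; COL1A1 / COL1A2, COL5A2 / COL5A1 and COL5A3 / COL5A1 do not overlap between the groups.

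Across the 8 libraries, COL5A1 and COL5A2 followed each other most closely, with a Pearson r of 0.996 on the log2 scale. COL1A1 and COL1A2 had an r of 0.9749, and COL11A1 had an r of 0.971 with COL5A1 and 0.917 with COL1A1. COL5A3 had values of only 0.146 to 0.325 with the other genes. After each group's mean was subtracted, r between COL5A3 and the others was 0.678 to 0.831. The treated COL5A3 values of horses D, J and L were nearly level, so horse W weighs heavily in these values. These values are descriptions over 8 libraries that share horses and the treatment.

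Among the other tested genes, those with the pattern nearest to COL1A1 over the 8 libraries were N4BP2 (r = 0.995), MACO1 (0.992) and ELN (0.990), which encodes elastin. For COL1A2 they were P4HA1 (0.995), a catalytic subunit of collagen prolyl 4-hydroxylase, KRT10A (0.991) and MAGED2 (0.988). CHRNA3 (0.994), SPARC (0.992) and MFAP4 (0.992) were nearest to COL5A1. UST (0.995), SPARC (0.995) and FNDC3B (0.994) were nearest to COL5A2. SPARC encodes a secreted collagen-binding glycoprotein and was the only gene named for both. COL5A3 was nearest to KCNAB3 (0.973), ZNF554 (0.960) and AKAP5 (0.959). RPAP2 (0.990), CSRP1 (0.989) and NUCB2 (0.989) were nearest to COL11A1. Of the genes named in this paragraph as nearest, limma called N4BP2, ELN, SPARC, MFAP4, FNDC3B and NUCB2 higher, and none of the others. Each r is among the highest over all other tested genes with only 8 libraries, so these are descriptions with no test.

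Genes that fold, export, process, cross-link, bind or degrade fibrillar collagen were described from 8 lists, with 64 genes tested. By limma, 18 of the 64 were called higher and 4 lower, with a median log2 fold change of 0.65. With the horse as a block, 24 were called higher and 5 lower. The shares over all tested genes, which also apply to each list below, were 5.59% called higher and 5.87% lower. With the block they were 6.83% and 7.31%. Leaving out horse D reduced the calls from 22 to 7, and leaving out W to 9, while calls over all genes went from 1709 to 718 and 795.

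The enzymes and chaperones of the endoplasmic reticulum that modify and fold procollagen were called higher in 7 of 16 cases and lower in 0, and their median log2 fold change was 0.98. Over all tested genes, 5.59% were called higher. SERPINH1, the collagen-specific chaperone HSP47, held 27065 to 78738 normalized counts in the untreated and 141337 to 183030 in the treated libraries (log2 fold change 1.99, adjusted p = 0.00567 by limma). PLOD2, a lysyl hydroxylase that prepares collagen for cross-linking, was upregulated by 1.89 on the log2 scale (adjusted p = 0.00228 by limma). The prolyl 3-hydroxylases P3H2 (1.86) and P3H1 (1.21) were also called higher. All 4, named for the largest changes in the list, had treated libraries above all untreated ones, as did 13.9% of tested genes.

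Among 8 genes of procollagen export, SEC24D, a coat protein of vesicles leaving the endoplasmic reticulum, was the only one called higher and none was called lower (log2 fold change 1.04, adjusted p = 0.0118 by limma). SEC23A (0.69), KDELR2 (0.60) and SEC13 (0.45) stayed below the fold threshold. Among 6 proteinases and enhancers that cut the propeptides, ADAMTS14, which removes the amino-terminal propeptide, was called higher. It held 8.12 to 43.1 normalized counts in the untreated and 274 to 465 in the treated libraries (log2 fold change 3.94, adjusted p = 0.00166 by limma). BMP1, which removes the carboxy-terminal propeptide, lay just under the fold threshold at 0.99 (adjusted p = 0.0114 by limma). ADAMTS2 (0.55) and PCOLCE (-0.49) were not called.

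Of 6 cross-linking enzymes, 1 was called higher and 1 lower, and with the horse as a block 3 were called higher and 1 lower. A list of 6 is too short to compare single calls with the shares of 5.59% and 5.87% over all tested genes. LOXL2 was upregulated from 2418 to 14687 normalized counts in the untreated to 23123 to 54545 in the treated libraries (log2 fold change 2.63, adjusted p = 0.01004 by limma). LOXL3 was downregulated (log2 fold change -1.03, adjusted p = 0.0183 by limma). LOX (1.44) and LOXL4 (1.64) were called higher by limma with the horse as a block, with an adjusted p of 0.00177 and 0.0220, and not without it. DESeq2 without the block called both (adjusted p = 0.0105 and 0.0188), and edgeR without the block called neither (adjusted p = 0.0617 and 0.0743).

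Among 13 proteins that sit on or beside the fibril, 6 were called higher and 2 lower, and with the block 7 and 3. Of all tested genes, 5.59% were called higher and 5.87% lower, and with the block 6.83% and 7.31%. The largest changes in this list were in THBS2 (4.02), DPT (3.97), FN1 (3.30) and SPARC (2.60), all called higher. THBS2 encodes thrombospondin-2, DPT dermatopontin and FN1 fibronectin. FN1 held 101984 to 646088 normalized counts in the untreated and 2308282 to 4315259 in the treated libraries. LUM and PRELP, small leucine-rich proteoglycans that bind fibrils, were called lower at -1.80 and -2.40, and were named after their values were seen.

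Of 8 collagen receptor genes, ITGA2, the collagen-binding integrin chain of platelets and epithelia, was called higher. It held 13.2 to 45.8 normalized counts in the untreated and 494 to 830 in the treated libraries (log2 fold change 4.94, adjusted p = 3.23e-04 by limma). ITGA11 (2.41), a collagen-binding integrin chain of fibroblasts, was called higher by limma with the horse as a block (adjusted p = 0.0491) and by DESeq2 without it (0.0226). Without the block, edgeR did not call ITGA11 (adjusted p = 0.0998), nor did limma. Its increase was 34.7-fold in horse J, 3.97-fold in D, 3.68-fold in W and 1.59-fold in L, and without J the log2 fold change was 1.51. ITGB1 (0.91) and MRC2 (0.73) stayed below the fold threshold. Of 5 genes of collagen degradation tested, FAP (2.68) was called higher and CTSK (-1.04), which encodes the collagen-degrading protease cathepsin K, lower. MMP1 (2.82), at 0 to 87.4 normalized counts, was called higher by limma only with the block (adjusted p = 0.0117). MMP14 (-0.55) was not called by limma without the block (adjusted p = 0.321) or with it (0.317). It was lower in horses D, L and W and higher in J. A call as lower by limma without J (-1.04, adjusted p = 0.0285) leaves out the horse that went the other way, so it is a description only. MMP13, which encodes another collagenase, was not tested because fewer than 4 libraries reached 10 normalized counts. It held 300 reads in untreated horse D, 5 in J, 247 in L and 16 in W, and 0 to 2 reads in the treated libraries, and was lower in 4 of 4 horses. The 2 remaining fibrillar chains analysed, COL24A1 (0.42) and COL27A1 (-0.52), were not called.

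**Figure D5:**
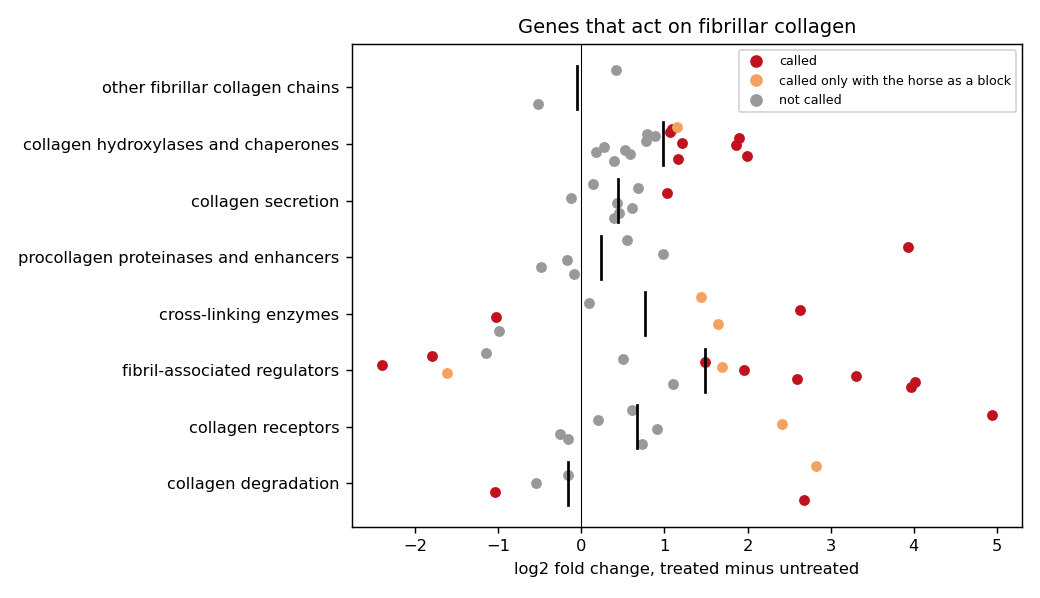
Log2 fold change of the 64 tested genes in 8 lists of genes that act on fibrillar collagen; each point is a gene, coloured by whether limma called it, and black bars are list medians. Points right of 0 are higher in the TGF-β2-treated libraries, where 18 were called, against 4 to the left. Over all tested genes, 5.59% were called higher and 5.87% lower.

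Markers of smooth muscle and myofibroblasts were compared between the same groups. Of 5 such markers, 4 were called higher by limma. Over all tested genes the share was 5.59%, and a list of 5 is too short to compare with it. The 4 called were ACTA2 (2.27), CNN1 (3.10), DES (4.46) and TAGLN (1.33). MYH11 (-0.12) was not called, and was higher in 2 horses and lower in 2. The summed level of the 5 was 85648 to 305003 normalized counts in the untreated and 345243 to 877802 in the treated libraries. Of 5 endothelial markers, 2 were analysed, at summed levels of 7.10 to 26.3 and 30.0 to 55.7 normalized counts, and KDR (2.27) was called higher. The part of these cell type markers in the collagen results was not tested.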

How the data were processed

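BM-MSC RNA of 4 horses, 1 untreated and 1 TGF-β2-treated culture each, was sequenced after poly(A) selection. The authors used Trimmomatic 0.36 for trimming, STAR 2.5.2b for alignment to EquCab 3.0, featureCounts (Subread 1.5.2) for counting of unique hits and DESeq2 for the group comparison. They deposited a signal per gene and library, the read count divided by a DESeq2 size factor. Whether counting used strand is not given in the sources used here. All deposited values (100%) were whole multiples of 1 step per library within a tolerance of 0.01, and the reads so recovered served for depth and count tests. The untreated libraries held 40044240 to 57228675 reads and the treated ones 39184554 to 46634539. A floor of 3 reads equalled 2.02 to 3.60 normalized counts. The table held 15267 rows, and 1 without a gene name (0.0281 to 0.0531% of reads) was left out.

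limma 3.58.1 (lmFit, eBayes with trend) in R 4.3.3 was run on log2(normalized count + 1), with Benjamini-Hochberg adjustment over all tested genes. Chain ratios were compared in scipy 1.17.1. The horse letter in the labels pairs the libraries: deviations from group means correlated at 0.480 on average within a horse (0.386 to 0.609). Between horses the average was -0.159, which subtracting the group means ties to the within-horse value, so it adds no separate evidence. The study's methods name no donor term and state no design formula, and the main model had none. Alternatives were pseudocounts of 0.5 and 5, no filter or a filter at 50, total and TMM scaling, the horse as a block, DESeq2 1.42.0 and edgeR 4.0.16 with and without the block, each horse left out, and other definitions of the ratios. Scripts were tested on simulated data. Named genes are the 6 members, the 4 genes of each list with the largest absolute log2 fold change, and the 3 genes nearest to each member by Pearson r. Members, lists and cell type markers (stromal, haematopoietic, endothelial, smooth muscle and myofibroblast, chondrocyte, osteoblast, tenocyte, adipocyte) were chosen with earlier results of these data known. Sequences and coordinates are not given and levels were not compared between genes per length, since no sequence or transcript length of this build was used here.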

Additional observations from a re-analysis of the deposited data

Results flagged for a closer look

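In 5 of the 116 groups of 4 libraries checked, 1 library stood apart from the other 3 by Dixon's test, and chance flags about 1 in 20 groups. COL5A3 in treated horse W was at 137 normalized counts, against 24.6 to 26.2 in the other treated libraries. AKAP5, whose pattern was among the nearest to COL5A3, was at 395 in the same library, against 89.3 to 116. COL24A1 was at 48.1 normalized counts in untreated horse L, against 10.4 to 14.8. DPT was at 16104 in treated horse J, against 2762 to 4172. THBS2 was at 19961 in untreated horse W, against 8682 to 9548.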

How the results depend on the processing

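COL1A2 was called higher with the horse as a block (1.67), by DESeq2 without (1.33) and with the block (1.67), and by edgeR with the block (1.67), but not by limma or edgeR without it (edgeR adjusted p = 0.132). Under the other pseudocounts, filters and scalings, no member was called differently, and COL5A3 did not pass the filter at 50. With a horse left out, log2 fold changes ranged from 2.09 to 2.98 for COL1A1, 1.27 to 2.05 for COL1A2, 2.72 to 3.41 for COL5A1, 1.96 to 2.31 for COL5A2, -1.05 to -0.20 for COL5A3 and 3.21 to 3.36 for COL11A1. The members called higher then numbered 0 to 5 and the partner genes called 7 to 31. By limma without the block, members called were 0 without horse D and 0 without W, and with the block 3 in each case. With 3 libraries a group, the smallest exact p of a ratio is 0.1. With the horse as a block, the ratios were compared by sign flips, whose smallest p is 0.125, so COL1A1 to COL1A2 gave exact p = 0.125. The log2 difference of type V to type I was -0.59 with geometric means. The log2 ratio COL11A1 to COL5A1 differed between the groups by -0.060 to 0.50 with a horse left out. Of 46 named genes that are no members, 20 kept their direction and call throughout. Genes that were not called turned sign in RPAP2 with total scaling (-0.030), COL24A1 without D (-0.059) or J (-0.025), and ADAMTS2 without J (-0.076), with and without the block. With a horse left out, COL24A1 reached at most 1.10 and ADAMTS2 0.98. The cause was not tested in any of these. Depth does not limit the abundant chains, whereas COL5A3 rests on 22 to 185 reads per library.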

Other observations

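Markers of skeletal lineages were measured in the same libraries. Of all tested genes, limma called 5.59% higher and 5.87% lower, and these lists are too short to compare with such shares. Of 3 tenocyte markers, 2 were analysed, and TNMD was not. The 2 analysed were called higher by limma: SCX (log2 fold change 2.40, adjusted p = 0.0205), a transcription factor of tendon progenitors, and MKX (2.96, adjusted p = 0.0293), a homeobox factor of tendon. Their summed level was 312 to 1218 normalized counts in the untreated and 1225 to 8390 in the treated libraries. Of 5 chondrocyte markers, 4 were analysed, with summed levels of 680 to 1280 and 1406 to 2517. SOX9 was called higher by limma (1.21, adjusted p = 0.0332) and ACAN, MATN3 and COMP were not. With the horse as a block, MATN3 was called lower by limma (-1.60, adjusted p = 0.0179), and it was lower in 4 of 4 horses. Of 4 osteoblast markers, 3 were analysed and none was called, at summed levels of 3453 to 8429 and 3004 to 16174. IBSP, a bone matrix protein, was at 9128 normalized counts in treated horse J and at 9.61 to 31.0 in the other treated libraries. Of 3 adipocyte markers, 1 was analysed. ADIPOQ was called higher by limma (3.12, adjusted p = 0.00860), at 4.71 to 25.2 and 45.7 to 167 normalized counts. No relation of these markers to the collagen genes was tested.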
